A study of Mus musculus with 22 samples.

Results

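The 90 genes described here encode the proteins of respiratory chain complexes I to IV in the mouse, and were chosen by symbol among the protein-coding genes of the count table, which lists 55385 genes in all. They were the genes whose symbols begin with Nduf (without Ndufv3), Sdha, Sdhb, Sdhc, Sdhd, Uqcr, Cox4i, Cox5, Cox6, Cox7, Cox8, mt-Nd, mt-Co or mt-Cytb. Of these, 79 are nuclear genes and 11 lie on the mitochondrial genome. The nuclear genes comprise 35 subunits and 8 assembly factors (Ndufaf) of complex I, 4 subunits and 4 assembly factors (Sdhaf) of complex II, 8 subunits of complex III, and 20 genes of complex IV, among them Ndufa4, Ndufa4l2 and Cox7a2l, which are counted here with complex IV. The mitochondrial genes comprise 7 subunits of complex I, 1 of complex III (mt-Cytb) and 3 of complex IV. The rule itself uses no expression value, but it was set with earlier results of these data known.

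Hippocampus (HIP) and entorhinal cortex (EC) were taken from each of 11 male mice, 5 wild-type (wt) littermates and 6 Ts66Yah mice, and gave 1 RNA-Seq library apiece. All animals were adults of 5 to 6 months on a B6C3B background. Ts66Yah mice carry a freely segregating minichromosome with the distal part of mouse chromosome 16 (Mmu16), so that this segment is present in 3 copies in every cell that keeps the minichromosome. The centromeric Mmu17 part of the parental Ts65Dn minichromosome was removed by CRISPR in this line. None of the 22 mouse brain libraries came from sorted cells, so fewer cells of a type and less RNA per cell cannot be told apart.

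Complexes I to IV sit in the inner mitochondrial membrane. Complex I (NADH dehydrogenase) and complex II (succinate dehydrogenase) pass electrons to ubiquinone, complex III passes them on to cytochrome c, and complex IV (cytochrome c oxidase) passes them to oxygen. All of them except complex II hold subunits from both genomes: the mitochondrial DNA encodes core subunits and is transcribed as long polycistronic RNAs, whereas the other subunits are encoded in the nucleus and imported. Neurons depend on this chain for most of their ATP. Complex IV has isoforms of several nuclear subunits that differ between tissues, such as the muscle forms Cox6a2, Cox7a1 and Cox8b and the testis forms Cox6b2, Cox7b2 and Cox8c.

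The libraries held about 25900500 to 50105800 counted reads, with a median of 34666800. Genes of the triplicated segment, used as a check of the labels, were higher in Ts66Yah: App had a log2 fold change of 0.61 ± 0.048 (SE) in HIP and 0.57 ± 0.054 in EC, and Dyrk1a one of 0.54 ± 0.043 and 0.61 ± 0.065. Sod1 passed the threshold in the HIP (0.43 ± 0.069, adjusted p = 0.0070) but not in the EC (0.46 ± 0.10, adjusted p = 0.121). Hippocampal markers summed to 1134 to 1367 CPM (reads scaled to a common library size by TMM) in HIP and 363 to 441 CPM in EC. Markers of the neocortex and entorhinal cortex summed to 368 to 448 CPM and 972 to 1189.8 CPM, respectively. Every adjusted p given here is from the quasi-likelihood test of edgeR, adjusted by Benjamini-Hochberg across all genes of the fit, unless another tool is named. One feature of the libraries touches results below: they differed in how strongly GC-rich genes were represented. The GC slope, the median log2 difference from the regional mean of other genes with at least 58.2% GC minus that of genes with at most 41.8% GC, ranged from -0.39 to 0.41, both extremes being wt EC libraries.

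The 11 mitochondrial members outweighed the 79 nuclear members in every library. Nuclear members took 0.615% ± 0.0435 (SD, n = 5) of all counted reads in wt HIP and 0.583% ± 0.0239 (n = 6) in Ts66Yah HIP. In the EC they took 0.664% ± 0.0788 in wt and 0.656% ± 0.0499 in Ts66Yah. Mitochondrial members took 3.48% ± 0.249 in wt HIP, 3.66% ± 0.326 in Ts66Yah HIP, 3.71% ± 0.332 in wt EC and 3.88% ± 0.526 in Ts66Yah EC. The genotypes overlapped in each region for both sums, and the difference between their means was smaller than the SD of the wt group in each case. Between the regions of one animal, the nuclear sum was higher in the EC in 4 of 5 wt and 6 of 6 Ts66Yah mice, and the mitochondrial sum in 3 of 5 and 4 of 6. The mitochondrial sum was highest in Ts66Yah EC replicate 5, at 4.92%, with the other Ts66Yah EC libraries between 3.45% and 3.86%.

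**Figure D1:**
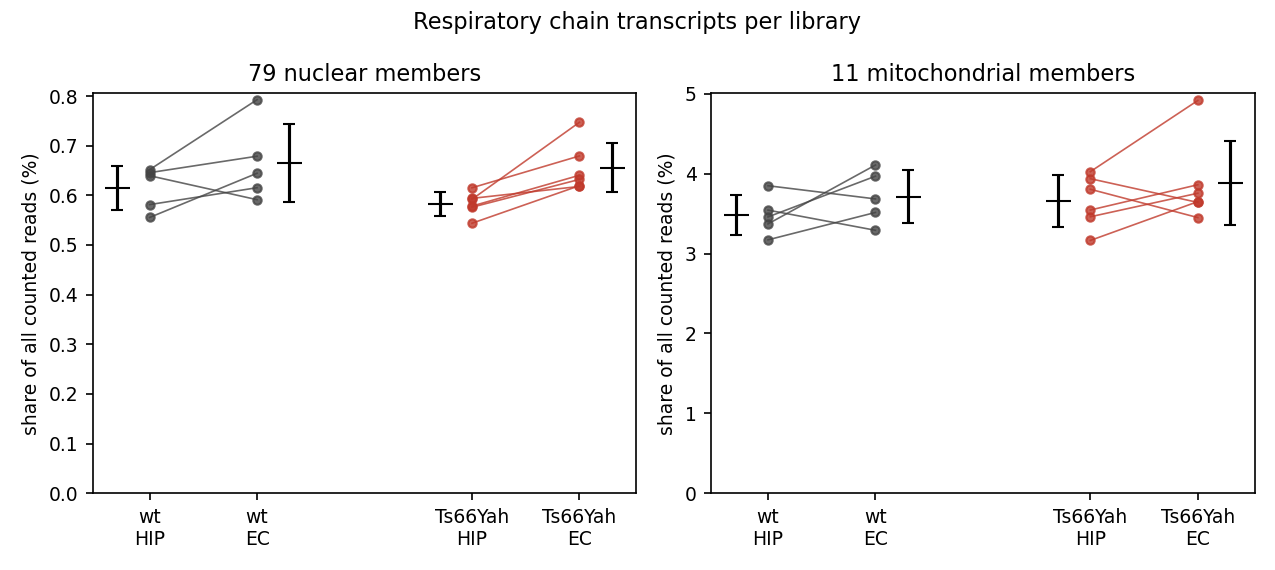
Share of all counted reads (%, y axis) taken by the 79 nuclear members (left) and the 11 mitochondrial members (right); each point is a library, lines join the HIP and EC libraries of one mouse, and black bars give the group mean ± SD. The nuclear share rises from HIP to EC in 6 of 6 Ts66Yah and 4 of 5 wt mice, whereas the genotypes overlap.

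Per kilobase of exon, the members spanned a wide range of levels. The length was that of all annotated exons of a gene together, which for some genes far exceeds 1 transcript. For Ndufa4 it was 1381 bases against a transcript of 468, and for Uqcrh 1237 against 402. The order of members per kb therefore depends on this choice of length. Over all 22 libraries the highest nuclear members were Cox4i1, the ubiquitous form of subunit 4, at a mean of 312 CPM per kb of exon (RPKM), Cox8a at 294 RPKM and Cox6b1 at 259 RPKM. The lowest tested members were the isoforms Cox7b2 (0.674 RPKM), Cox8b (0.984 RPKM) and Cox4i2 (1.83 RPKM). Cox8c had 0 reads in all 22 libraries and was tested in no comparison. In complex II, the membrane anchor Sdhd was at 79.6 RPKM and the iron-sulphur subunit Sdhb at 46.2 RPKM. This order depends on the length used, since Sdhb had 103 CPM over 2239 exon bases but a transcript of 1142 bases. Sdhd had 98.0 CPM, with 1231 bases by both lengths. Among mitochondrial members, mt-Nd1 (7083 RPKM), mt-Cytb (6705 RPKM) and mt-Co1 (6258 RPKM) were highest, and mt-Nd2, mt-Nd4, mt-Nd5 and mt-Nd6 lay between 2256 and 3961 RPKM. The remaining 4 were listed far lower, mt-Nd4l at 3.16 RPKM and mt-Nd3 at 4.98 RPKM, with mt-Co2 and mt-Co3 next.

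The values of these 4 genes are uncertain as levels of the mitochondrial transcripts. Each of the 4 genes has a nuclear pseudogene of near-identical sequence: Gm28661 matches mt-Co2 over 681 bases and Gm28437 matches mt-Co3 over 783 bases, both at 100% identity, as does Gm10222 with mt-Nd4l over 294 bases, and Gm28438 matches mt-Nd3 at 99.7% over 345 bases. The pseudogene was counted higher than the mitochondrial gene in each pair. For mt-Co3 the medians over 22 libraries were 10.3 CPM and, for Gm28437, 325 CPM, and for mt-Co2 they were 6.79 CPM and, for Gm28661, 159.9 CPM. Reads of 50 bases that match both places equally well cannot be assigned by sequence, and how the counting treated them is not given in the sources used here. In all, 10 of the 11 mitochondrial members have such a nuclear copy, mt-Nd1 being the exception; for the long, highly counted genes the copies were minor, as with mt-Nd4 (median 3196 CPM) and Gm28439 (111 CPM). Gm13339, which matches mt-Nd2 at 96.7% over 510 bases, followed the animal: it was at 78.8 to 219.6 CPM in both regions of wt mice 1 to 3 and Ts66Yah mice 5 and 6 and at 2.40 to 13.5 CPM in the other mice, whereas mt-Nd2 itself was at 3327 to 6189 CPM.

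The comparison of Ts66Yah with wt in the HIP asked whether the extra segment was accompanied by a change in respiratory chain transcripts. No member passed the threshold: 0 of 89 tested, where 0.591% of all tested genes did. At an unadjusted p under 0.05 there were 15 members, all lower in Ts66Yah, which is 16.9% of the members beside 11.9% of all genes. The median log2 fold change was -0.02 over the 78 nuclear members tested and 0.10 over the 11 mitochondrial members, beside 0.00 over all genes. DESeq2 called 1 of the 89 members, where it called 180 of all 18452 genes higher and 177 lower. limma voom called 0 members.

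The nuclear complex I subunit Ndufb9 had the smallest p in the HIP. Its levels were 77.2, 80.4, 81.3, 82.0 and 89.5 CPM in wt and 66.7, 71.3, 72.0, 73.7, 75.7 and 76.7 CPM in Ts66Yah. The Ts66Yah libraries all lay below the wt libraries, by a log2 fold change of -0.18 ± 0.049 (adjusted p = 0.162). DESeq2 placed the same difference at an adjusted p of 0.0499, and it was the member that DESeq2 called. In the EC the estimate was -0.18 ± 0.089 (adjusted p = 0.818). Ndufb9 shares exons with the readthrough gene Gm49356.

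The largest estimates in the HIP belonged to Cox8a, Ndufaf8, Cox6a1 and Cox5a. Cox8a, the ubiquitous form of a small complex IV subunit, was at 102, 143, 241, 243 and 389 CPM in wt and at 102, 108, 117, 131, 156 and 156 CPM in Ts66Yah. The groups overlapped, the spread in wt was wide, and the log2 fold change was -0.80 ± 0.26 (adjusted p = 0.238). Ndufaf8, an assembly factor of complex I, gave -0.72 ± 0.24 (adjusted p = 0.246), and Cox6a1, the ubiquitous form of subunit 6a, gave -0.57 ± 0.17 (adjusted p = 0.182). Cox5a, a matrix-side subunit of complex IV, gave -0.51 ± 0.26 (adjusted p = 0.464), from 10.4 to 46.6 CPM in wt and 17.2 to 19.6 CPM in Ts66Yah. Without wt HIP replicate 2, Cox5b was called lower (-0.56 ± 0.11, adjusted p = 0.0463), and it gave -0.42 ± 0.16 with all libraries. Ndufs3, a core subunit of the peripheral arm of complex I, gave -0.32 ± 0.12.

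Most subunits were estimated tightly. The log2 fold changes of the core subunits were -0.02 ± 0.044 for Ndufs1, which carries iron-sulphur clusters of complex I, -0.02 ± 0.048 for Ndufv1, which binds NADH, 0.03 ± 0.040 for Sdha, -0.11 ± 0.067 for the complex III core protein Uqcrc1 and -0.10 ± 0.070 for the Rieske protein Uqcrfs1. For 76 of the 89 members the estimate with 2 SE on either side lay within a 1.5-fold change in both directions. The medians of the nuclear members were -0.02 for complex I subunits, -0.04 for complex I assembly factors, -0.02 and 0.07 for complex II subunits and assembly factors, -0.04 for complex III and -0.0049 for complex IV.

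In the EC the genotypes were closer still. Of 88 members tested, 0 passed the threshold, where 0.283% of all genes did, and 0 had an unadjusted p under 0.05, beside 6.25% of all genes; DESeq2 and limma voom also called 0. The median log2 fold change was 0.00 for nuclear and 0.05 for mitochondrial members. Besides Ndufb9, the smallest p-values belonged to Ndufa9 (-0.10 ± 0.065), Ndufaf5 (0.10 ± 0.064), Ndufb8 (-0.11 ± 0.077) and Ndufaf3 (-0.13 ± 0.089), with adjusted p-values of 0.818 or more. Cox8a was at 73.6 to 427 CPM in wt and 116 to 337 CPM in Ts66Yah, and its log2 fold change was 0.03 ± 0.40. For 78 of the 88 members the estimate with 2 SE lay within a 1.5-fold change.

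Mitochondrial members showed no difference between genotypes past the threshold in either region. In the HIP, 10 of the 11 estimates were above 0, among them mt-Nd1 at 0.13 ± 0.071 (adjusted p = 0.490) and mt-Nd2 at 0.15 ± 0.076 (adjusted p = 0.479). In the EC, 6 of the 11 were above 0. The mitochondrial members come from long shared transcripts and are therefore not independent of each other. For mt-Nd1, the subunit nearest to the ribosomal RNA genes, wt HIP libraries were at 5213, 5486, 5501, 5606 and 5819 CPM and Ts66Yah HIP libraries at 5085, 5547, 6312, 6343, 6363 and 6684 CPM. Thus 4 of the 6 Ts66Yah libraries lay above all wt libraries and 1 lay below them.

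**Figure D2:**
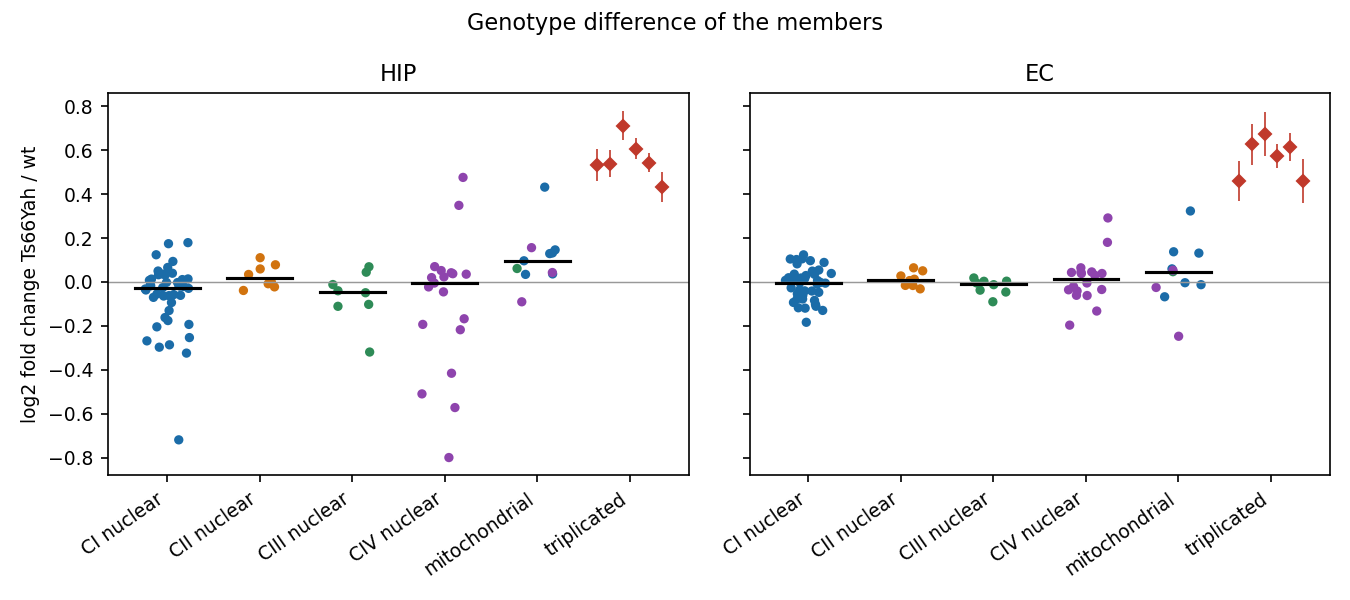
Log2 fold change of Ts66Yah over wt (y axis) for each tested member in HIP (left) and EC (right), grouped by complex and genome, assembly factors included; points are genes coloured by complex (I blue, II orange, III green, IV purple), horizontal bars are medians, and red diamonds with SE bars are the triplicated genes Gabpa, Atp5j, Atp5o, App, Dyrk1a and Sod1, from left to right. The medians of the members lie near 0 while the triplicated genes lie between 0.43 and 0.71; the low points of complex IV in the HIP are Cox8a, Cox6a1, Cox5a and Cox5b.

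The test of whether the genotype difference itself differed between regions called 0 of 89 members, as it called 0% of all 19074 genes tested. DESeq2 and limma voom also called 0, and 1 member had an unadjusted p under 0.05, against 2.03% of all genes. That member was Cox8b, with a log2 difference of 1.79 ± 0.55 and an unadjusted p of 0.0034 in the edgeR fit across all genes. It was counted at less than 1 CPM in every library. The next smallest p-values belonged to Ndufaf8 (0.82 ± 0.47), Cox5a (0.69 ± 0.40), Ndufs3 (0.35 ± 0.21) and Cox8a (0.83 ± 0.52).

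No member lies in the triplicated segment. Mir155 (GRCm38 chr16:84714140-84714204) lies near the upstream end of the segment, and the only member on that chromosome, Ndufb4 (chr16:37647170-37654453), lies upstream of it and had log2 fold changes of 0.00 ± 0.095 in HIP and 0.01 ± 0.12 in EC. The segment does hold genes of the neighbouring machinery. Atp5j and Atp5o, which encode subunits of ATP synthase (complex V), rose by 0.54 ± 0.062 and 0.71 ± 0.067 in the HIP and by 0.63 ± 0.094 and 0.67 ± 0.10 in the EC, with adjusted p-values of at most 0.00701. Atp5o was at 48.4 to 57.9 CPM in wt HIP and 80.9 to 104 CPM in Ts66Yah HIP, without overlap. They were the only 2 of the 18 complex V genes tested that passed the threshold in either region.

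The segment also holds Gabpa (chr16:84834925-84863779), which encodes the DNA-binding subunit of GABP, an ETS-family factor also called NRF2 that is known to bind promoters of many respiratory chain genes. Gabpa was at 31.1 CPM in its highest wt HIP library, with a median of 27.3 CPM, and at 33.1 CPM in its lowest Ts66Yah HIP library. The groups did not overlap, and the log2 fold change was 0.53 ± 0.074 (adjusted p = 0.00197). In the EC it was 0.46 ± 0.091 (adjusted p = 0.0603). Of the 12 nuclear regulators tested, Gabpa was the only gene past the threshold, in the HIP.

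The promoters of several members hold the letters that ETS factors bind. RefSeq promoter windows (GRCm38.p6, 250 bases before to 50 bases after the annotated start) were found for 64 of the 79 nuclear members. The ETS core CCGGAAG, read on both strands, was present in 16 of them, or 25%, and in 9.93% of the 27025 genes with a window. The NRF1 core GCATGCGC was present in 14.1% of the members' windows and 3.05% of all, the YY1 core AAGATGGC in 12.5% and 3.19%, and the NF-Y core CCAAT in 39.1% and 41.1%. The ETS and YY1 cores can overlap, since one ends and the other begins with AAG. Windows of 5 members are shown, with both the ETS and NRF1 cores, the ETS core alone or neither. None shows the NRF1 core without the ETS core, as in Ndufa11 and Uqcrc1. Sdhb and Cox6a1 hold both, Cox6b1 and Cox8a hold the ETS core but not the NRF1 core, and Sdha, the steadiest member, holds neither. Each of the 5 also holds the NF-Y core, which is not marked. Capitals mark matches to the ETS and NRF1 cores on either strand, and each window is written 5′ to 3′ on the gene's strand.
Sdhb (chr4:140961021-140961320, + strand): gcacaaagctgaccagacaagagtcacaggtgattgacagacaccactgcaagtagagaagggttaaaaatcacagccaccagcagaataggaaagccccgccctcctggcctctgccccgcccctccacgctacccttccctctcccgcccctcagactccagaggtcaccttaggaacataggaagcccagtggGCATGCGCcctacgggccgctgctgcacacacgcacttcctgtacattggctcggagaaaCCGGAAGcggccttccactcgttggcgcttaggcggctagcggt
Cox6b1 (chr7:30626065-30626364, - strand): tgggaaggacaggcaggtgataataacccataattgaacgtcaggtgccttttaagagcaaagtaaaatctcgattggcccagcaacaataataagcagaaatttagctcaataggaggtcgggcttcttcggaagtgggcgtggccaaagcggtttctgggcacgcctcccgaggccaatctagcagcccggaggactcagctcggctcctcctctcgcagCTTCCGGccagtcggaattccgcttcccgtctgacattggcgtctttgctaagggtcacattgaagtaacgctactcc
Cox6a1 (chr5:115348909-115349208, - strand): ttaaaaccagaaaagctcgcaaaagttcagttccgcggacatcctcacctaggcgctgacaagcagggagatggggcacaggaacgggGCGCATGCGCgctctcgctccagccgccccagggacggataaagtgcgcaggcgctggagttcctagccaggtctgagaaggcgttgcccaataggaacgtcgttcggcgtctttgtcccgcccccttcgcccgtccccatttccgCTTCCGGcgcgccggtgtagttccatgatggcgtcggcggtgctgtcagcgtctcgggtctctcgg
Cox8a (chr19:7217567-7217866, - strand): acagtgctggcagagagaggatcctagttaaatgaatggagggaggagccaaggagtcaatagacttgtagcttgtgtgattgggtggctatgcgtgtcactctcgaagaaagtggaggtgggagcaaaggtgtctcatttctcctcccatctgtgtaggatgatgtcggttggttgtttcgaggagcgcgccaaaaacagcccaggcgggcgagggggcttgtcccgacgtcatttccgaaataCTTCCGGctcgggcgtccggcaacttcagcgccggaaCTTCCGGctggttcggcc
Sdha (chr13:74350191-74350490, - strand): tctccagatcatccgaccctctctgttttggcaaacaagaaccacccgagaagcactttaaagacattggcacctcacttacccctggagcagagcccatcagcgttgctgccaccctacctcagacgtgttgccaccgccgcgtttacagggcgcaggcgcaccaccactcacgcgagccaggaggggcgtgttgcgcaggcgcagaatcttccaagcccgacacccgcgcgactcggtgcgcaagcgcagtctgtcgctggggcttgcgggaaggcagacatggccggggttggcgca
Cox8a holds the ETS core in 2 places. In Cox6a1 the NRF1 core is read on both strands over overlapping letters.

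Members with and without the ETS core had close medians in the genotype comparisons. In the HIP the median log2 fold change was -0.04 over the 16 members with the core and -0.02 over the 48 without it; in the EC the medians were -0.0010 over 16 and -0.0020 over 47. Of the shown members, Cox8a (-0.80 ± 0.26) and Cox6a1 (-0.57 ± 0.17) had among the lowest estimates in the HIP, whereas Sdhb gave -0.04 ± 0.051, Cox6b1 0.07 ± 0.060 and Sdha 0.03 ± 0.040. In the EC all 5 lay between -0.06 and 0.05. The 9 members with the NRF1 core were all below 0 in the HIP, from -0.57 to -0.02 with a median of -0.04, as were 49 of the 78 nuclear members tested, and in the EC they ranged from -0.09 to 0.10. A match to these letters is a description of the window and not of binding in these tissues.

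The comparison of the EC with the HIP within each genotype gave the clearest differences among the members, and they ran mostly one way. Both regions came from the same mice, but the region values here and for the genes below are from a fit without the animal as a block. Whether a gene passed the threshold refers to that fit. With the block, described further below, more nuclear members were called higher in the EC. In wt mice 34 of the 88 tested members were higher in the EC and 3 were lower, where 23.4% of all genes were higher and 24.3% lower. In Ts66Yah mice 41 of 89 were higher and 4 lower, where 26.4% of all genes were higher and 27.5% lower. Members higher in the EC thus made up a larger share than among all genes, and members lower in the EC a far smaller one. The median log2 fold change over nuclear members was 0.17 in wt and 0.21 in Ts66Yah, and over mitochondrial members it was 0.25 and 0.16, beside 0.01 over all genes in both genotypes. The genotypes share no animals, and 33 members were called in both, which is 89.2% of the wt calls and 73.3% of the Ts66Yah calls, without a change of sign. Over all genes tested in both genotypes these shares were 89.1% and 78.5%, so the overlap of the members was near that of other genes.

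Complex I, the largest group, held many of the higher members. Of its 35 nuclear subunits, 14 were higher in the EC in wt and 16 in Ts66Yah, and 0 were lower. The shares higher were near those of all members, 34 of 88 in wt and 41 of 89 in Ts66Yah. Ndufv1, of the NADH-binding module, was at 168, 184, 184, 189 and 192 CPM in wt HIP and at 205, 207, 234, 240.1 and 257 CPM in wt EC. The regions did not overlap, with a log2 fold change of 0.32 ± 0.071 (adjusted p = 0.00227), and in Ts66Yah it was 0.30 ± 0.067. Ndufc2, a membrane-arm subunit, rose by 0.43 ± 0.12 in wt and 0.42 ± 0.074 in Ts66Yah. Among accessory subunits, Ndufa2 rose by 0.42 ± 0.14 and 0.42 ± 0.088, Ndufs5 by 0.43 ± 0.15 and 0.35 ± 0.095, Ndufs6 by 0.39 ± 0.13 and 0.36 ± 0.077, and Ndufb4 by 0.38 ± 0.12 and 0.39 ± 0.094. Ndufs1 gave -0.03 ± 0.059 and 0.04 ± 0.044. Whether Ndufs1 and Ndufv1 differ in their region effect was not tested.

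The complex I assembly factors were mixed. Ndufaf3 rose in the EC by 0.37 ± 0.098 in wt and 0.39 ± 0.060 in Ts66Yah, and Ndufaf5 by 0.17 ± 0.067 and 0.29 ± 0.053. Of the 8 factors, 2 were higher in wt and 3 in Ts66Yah, beside 23.4% and 26.4% of all genes. The third in Ts66Yah was Ndufaf8 (0.72 ± 0.24, and -0.10 ± 0.38 in wt). The 1 factor that fell, in Ts66Yah, was Ndufaf4 (-0.17 ± 0.058, and -0.20 ± 0.099 in wt), named here after its values were seen.

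Complexes II and III had no member lower in the EC among their subunits. Of the 4 complex II subunits, 3 were higher in the EC in each genotype and the lowest estimate was 0.07 in wt and 0.10 in Ts66Yah. Sdha was at 449 to 469 CPM in wt HIP and 498 to 543 CPM in wt EC, without overlap, and rose by 0.18 ± 0.047 (adjusted p = 0.0077) and, in Ts66Yah, by 0.19 ± 0.042 (adjusted p = 0.00174). All 8 complex III subunits had estimates above 0 in both genotypes, of which 4 passed the threshold in wt and 6 in Ts66Yah. Uqcrc1 and Uqcrfs1 passed it in Ts66Yah (0.24 ± 0.067 and 0.21 ± 0.053) but not in wt (0.14 ± 0.083 and 0.11 ± 0.083), and Uqcrq, a small subunit, gave 0.40 ± 0.089 in Ts66Yah and 0.13 ± 0.19 in wt. The interaction test did not call these differences between genotypes.

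Complex IV held the largest rises and, beside Ndufaf4, the nuclear members that fell. Cox4i1 was at 356, 396, 411, 436 and 494 CPM in wt HIP and at 505, 519.8, 520.4, 555 and 743 CPM in wt EC. All wt EC libraries lay above the HIP libraries, and the log2 fold change was 0.45 ± 0.11 (adjusted p = 0.0059), and in Ts66Yah it was 0.42 ± 0.081. Cox7a2 rose by 0.46 ± 0.11 and 0.40 ± 0.083, Cox6b1 by 0.36 ± 0.052 and 0.24 ± 0.076, and Ndufa4 by 0.30 ± 0.085 and 0.25 ± 0.073. Cox7b gave 0.20 ± 0.068 in Ts66Yah, where it passed the threshold, and 0.17 ± 0.077 in wt, where it did not. Cox7a2l, which takes part in joining complexes III and IV into supercomplexes, gave 0.21 ± 0.11 and 0.20 ± 0.092 and passed in neither. Cox6a1 and Cox8a gave -0.06 ± 0.30 and -0.23 ± 0.44 in wt but 0.45 ± 0.14 and 0.59 ± 0.22 in Ts66Yah, where both passed the threshold. Without Ts66Yah replicate 4 or 6 neither passed, at adjusted p-values of 0.0666 and 0.0694 for Cox6a1 and 0.114 and 0.155 for Cox8a, and without replicate 5 Cox8a was at 0.0586.

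**Figure D3:**
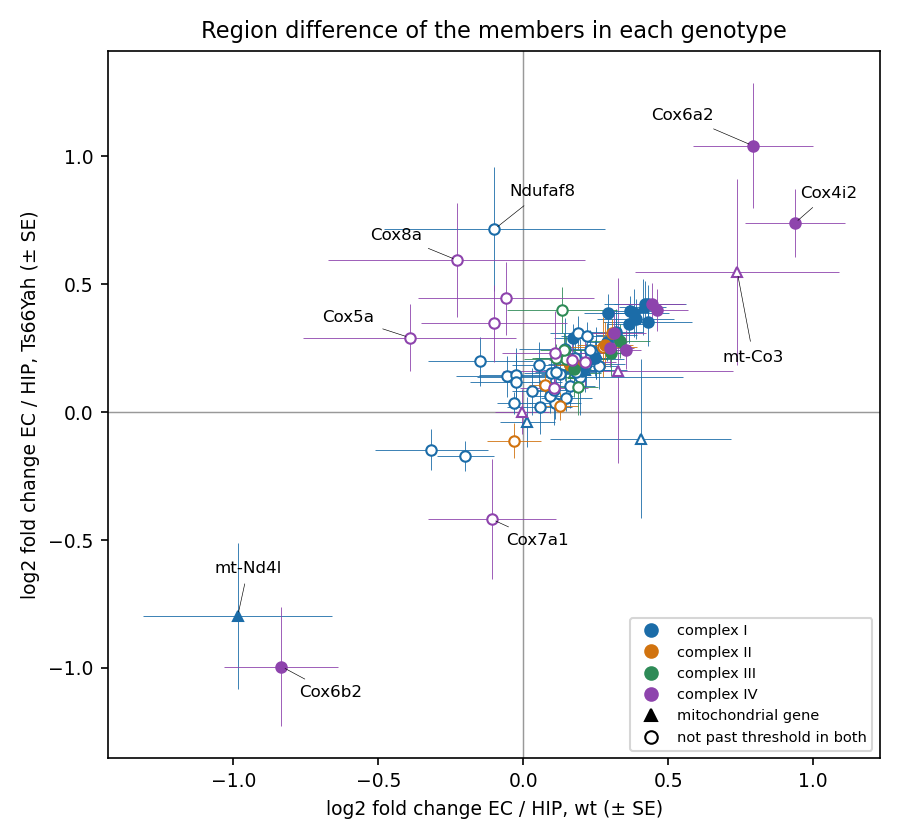
Log2 fold change of EC over HIP in wt (x axis) and in Ts66Yah (y axis), with SE bars, for each member tested in both genotypes; circles are nuclear and triangles mitochondrial genes, colours mark the complex, and filled symbols passed the threshold in both genotypes. Most members lie in the upper right; Cox6a2 and Cox4i2 rise most, Cox6b2 and mt-Nd4l fall, and Cox8b (fitted at -3.73 in wt and -1.95 in Ts66Yah) lies outside the plotted range and is left out.

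Of the minor isoforms of complex IV, Cox4i2 and Cox6a2 rose and Cox6b2 fell in the EC in both genotypes. Cox4i2, the form known from lung and from hypoxia, was at 0.793 to 1.22 CPM in wt HIP and 1.49 to 2.41 CPM in wt EC, without overlap, and rose by 0.94 ± 0.17 in wt and 0.74 ± 0.13 in Ts66Yah. Cox6a2, the heart and muscle form that parvalbumin interneurons are known to express, was at 1.59 to 2.41 CPM and 2.27 to 5.08 CPM, with the lowest EC library inside the HIP range, and rose by 0.79 ± 0.21 and 1.04 ± 0.25. Cox6b2 fell, from 1.93 to 3.53 CPM in wt HIP to 1.11 to 1.73 CPM in wt EC, with log2 fold changes of -0.83 ± 0.20 and -0.99 ± 0.23. Cox7b2 was tested in Ts66Yah and gave 0.22 ± 0.33, Cox7a1 gave -0.11 ± 0.22 and -0.42 ± 0.24, and Ndufa4l2, an isoform of Ndufa4, 0.11 ± 0.18 and 0.23 ± 0.16. None of these 3 passed.

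Cox8b was near the limit of counting in the EC. It was at 0.340, 0.412, 0.727, 0.861 and 0.924 CPM in wt HIP and at 0.0294, 0.0307, 0.0479, 0.0603 and 0.0608 CPM in wt EC. In Ts66Yah it was at 0.453 to 0.788 CPM in HIP and 0.0350 to 0.254 CPM in EC. The regions did not overlap in either genotype, but the wt EC libraries held 1 to 2 reads each and 8 in all, against 119 in wt HIP, and the Ts66Yah EC libraries 29 in all against 128. Cox8b passed the filter on low counts through the HIP libraries, so its fitted log2 fold changes of -3.73 ± 0.43 and -1.95 ± 0.30 are rough. From the summed reads, scaled for library size, the HIP over EC ratio was 14.2 in wt (exact 95% interval 6.95 to 33.5) and 3.87 in Ts66Yah (2.57 to 6.01), intervals that cover counting error only. The choroid plexus markers, another tissue that a dissection of the HIP can carry along, moved with it: all 6 were lower in the EC in both genotypes, and their sum was 114 to 3322 CPM in the HIP libraries and 10.5 to 44.3 CPM in the EC libraries. Their part in the Cox8b difference was not tested.

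In terms of reads per kb, each minor isoform remained a small part of its pair. In wt HIP, Cox4i2 made up 0.485% ± 0.0554 (SD, n = 5) of the Cox4i pair and in wt EC 0.689% ± 0.0950. Cox6a2 made up 1.20% ± 0.452 and 2.19% ± 0.722 of the Cox6a pair, and Cox6b2 1.05% ± 0.271 and 0.461% ± 0.0734 of the Cox6b pair. Cox7a1 made up 1.73% ± 0.510 of Cox7a1 and Cox7a2 in wt HIP and 1.19% ± 0.354 in wt EC. No pair changed its main form between regions or genotypes.

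**Figure D4:**
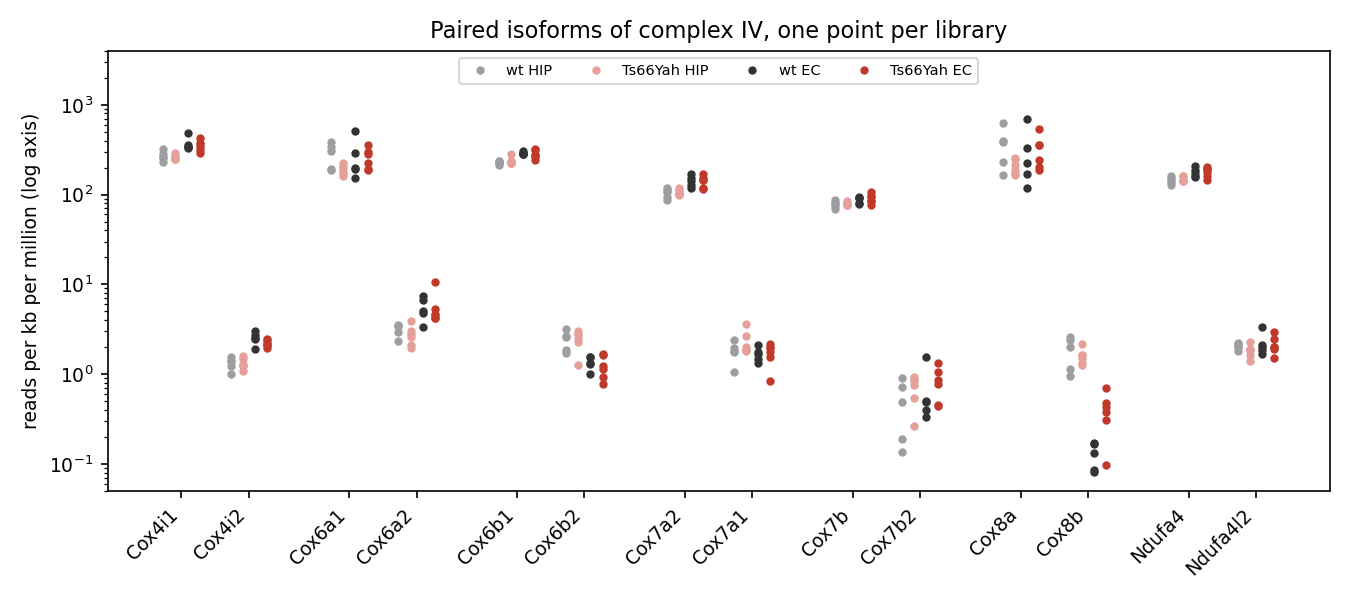
Level of the major and minor isoforms of each pair in RPKM (log axis), 1 point per library, by group. The major forms (Cox4i1, Cox6a1, Cox6b1, Cox7a2, Cox7b, Cox8a, Ndufa4) lie far above their partners in every library; Cox4i2 and Cox6a2 are higher and Cox6b2 and Cox8b lower in the EC.

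Of the 11 mitochondrial members, 3 were higher in the EC in wt (mt-Nd1, mt-Nd2 and mt-Nd5) and 2 in Ts66Yah (mt-Nd1 and mt-Nd5). These counts were near the shares of all genes higher in the EC, 23.4% in wt and 26.4% in Ts66Yah. The 1 member called lower in both genotypes was mt-Nd4l. These calls changed when single animals were left out: without wt replicate 1, 4 or 5, and without Ts66Yah replicate 1, 2, 3 or 5, 1 mitochondrial member was higher, and mt-Nd4l was not called without wt replicate 2 or 3 or without Ts66Yah replicate 1, 4 or 6. mt-Nd1 rose by 0.41 ± 0.080 in wt (adjusted p = 0.000967) and 0.41 ± 0.11 in Ts66Yah (adjusted p = 0.00506), with all wt EC libraries (6032 to 8314 CPM) above all wt HIP libraries. mt-Nd2 gave 0.25 ± 0.091 (adjusted p = 0.0366) and 0.23 ± 0.10 (adjusted p = 0.0659), and mt-Nd5 0.25 ± 0.098 (adjusted p = 0.0497) and 0.21 ± 0.078 (adjusted p = 0.0354). mt-Co1, whose protein holds the oxygen-binding centre of complex IV, gave -0.0034 ± 0.094 and 0.0011 ± 0.088, and mt-Nd4 0.01 ± 0.094 and -0.04 ± 0.097. Whether the mitochondrial genes differ from each other was not tested. The 4 members with low counts gave wide errors, with mt-Co3 at 0.74 ± 0.35 and 0.55 ± 0.36 and mt-Nd3 at 0.40 ± 0.31 and -0.10 ± 0.31, and mt-Nd4l at -0.98 ± 0.32 and -0.80 ± 0.29 from less than 2 CPM in every library. The ribosomal RNA genes mt-Rnr1 and mt-Rnr2 rose in the EC by 0.53 ± 0.12 and 0.51 ± 0.13 in wt and by 0.51 ± 0.20 in both cases in Ts66Yah. Their share of the reads was 0.464% to 1.25% over all libraries.

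With the animal as a block, which the shared mice of the 2 regions warrant, 37 nuclear members were higher and 3 lower in wt and 49 and 3 in Ts66Yah, beside 31 and 2, and 39 and 3 without it. Over all genes the block raised the share higher in the EC from 23.4% to 26.3% in wt and from 26.4% to 28.9% in Ts66Yah. For mitochondrial members it raised the calls higher in the EC in Ts66Yah from 2 to 4. Without wt replicate 3, the count of nuclear members higher in wt was 20.

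Some members varied strongly between libraries of one group. Over the nuclear members with a mean of 10 CPM or more, the median SD of the log2 level within groups was 0.155, beside 0.126 for all 9903 genes at that level. Cox8a had the largest SD, 0.671, followed by Ndufa12 (0.566), Cox5a (0.527), Cox6a1 (0.445) and Cox5b (0.401). At the other end, Sdha had 0.0509 and Sdhd, Sdhc and Ndufs1 had 0.0737 to 0.0750. In wt EC, Cox8a spanned 73.6 to 427 CPM while Sdha spanned 498 to 543 CPM.

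In 3 of the 4 groups the same library was highest for Cox8a, Cox6a1, Cox5b and Cox5a. In wt HIP, replicate 5 had the highest Cox8a (389 CPM), Cox6a1 (268 CPM), Cox5b (65.5 CPM) and Cox5a (46.6 CPM), and replicate 2 the lowest of each. In wt EC, replicate 5 was again highest for all 4 genes. In Ts66Yah EC, replicate 6 was highest for all 4, with Cox8a at 337 CPM, and replicate 1 was lowest for all of them. In wt EC the lowest Cox8a was in replicate 4 (73.6 CPM) and the lowest Cox5a in replicate 1 (10.4 CPM). Ts66Yah HIP differed: replicate 5 had the highest Cox8a (156 CPM) with Cox5a at 17.9 CPM, and replicate 2 had the lowest Cox8a (102 CPM) with the highest Cox5a (19.6 CPM). The 12 most variable nuclear members had a median transcript length of 635 bases and a median GC content of 53.7%, and the other 56 had 868 bases and 50.3%. The GC slope of other genes was 0.41 in wt EC replicate 5 and -0.39 in wt EC replicate 4, which had the lowest Cox8a. In Ts66Yah EC replicate 6 it was -0.03. In the HIP the slope had a mean of 0.068 in wt (-0.21 to 0.22) and -0.060 in Ts66Yah (-0.18 to 0.013). It was 0.21 in wt HIP replicate 5 and -0.21 in wt HIP replicate 2, which had the highest and lowest Cox8a of that group. With the GC trend removed, the SD fell in 8 of the 12, and their median SD was 0.280 beside 0.271 before. Ndufs7 fell most, from 0.251 to 0.155, Cox8a went from 0.671 to 0.602, and Cox5a rose from 0.527 to 0.536. The part of GC content in what remained was not tested.

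**Figure D5:**
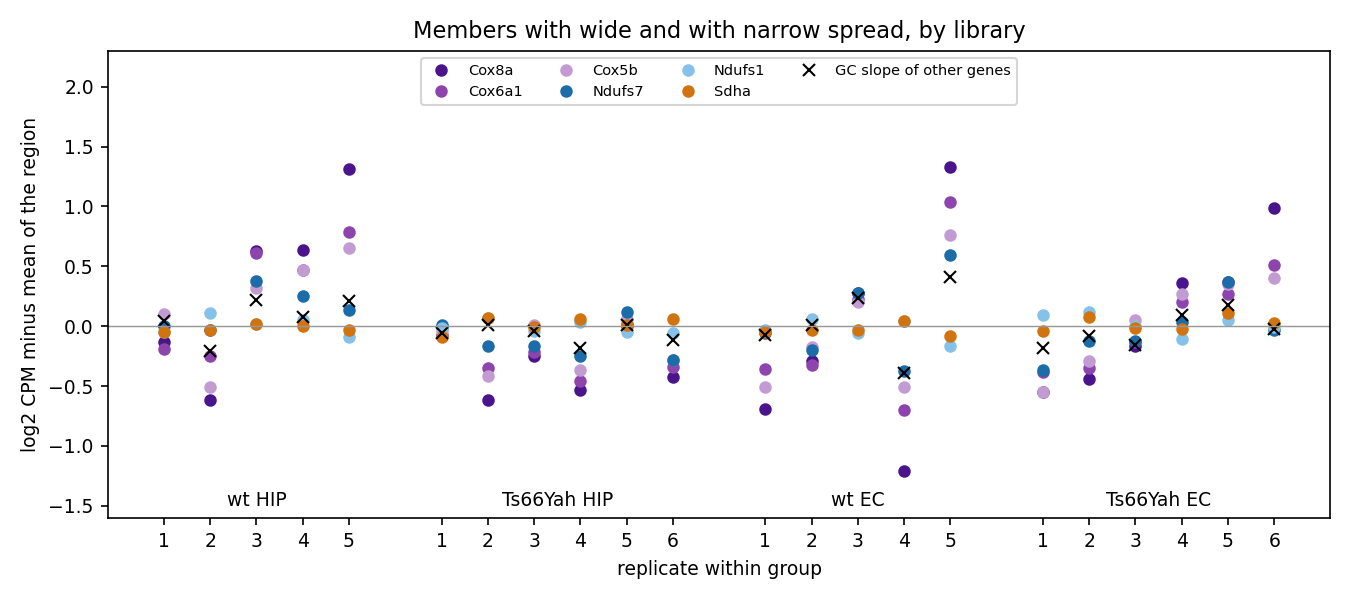
Log2 CPM minus the mean of its region (y axis) for 6 members in each of the 22 libraries (x axis, replicate within group), with the GC slope of the other genes as crosses. Cox8a, Cox6a1 and Cox5b spread widely within every group but Ts66Yah HIP, where they lie mostly below 0, while Ndufs1 and Sdha stay near 0 in each library.

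The same members had low genotype estimates in the HIP. Over the 12 most variable nuclear members the median log2 fold change of Ts66Yah over wt was -0.31 in HIP and 0.02 in EC, and over the other nuclear members it was -0.01 and 0.00. Of the 15 members with an unadjusted p under 0.05 in the HIP, 8 were among these 12. The 12 were chosen by their spread in these same libraries. Cox8a, Cox6a1, Cox5b and Cox5a also shared their highest and their lowest library in wt HIP. Their estimates are therefore not independent, and neither the median nor this overlap is separate evidence of a genotype difference. With the GC trend removed, 0 members passed the threshold in either region, as without the correction. That count therefore says nothing about the low HIP estimates, and the part of the GC slope in them was not tested.

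Ndufa12, an accessory subunit of complex I, differed between animals rather than groups. It was at 9.86 CPM in HIP and 13.4 CPM in EC of wt mouse 3, and at 24.2 to 45.2 CPM in all other libraries. Its pseudogene Gm15920 was at 29.4 and 24.3 CPM in that mouse and at 6.58 to 20.7 CPM elsewhere. The sum of the 2 ranged from 37.6 to 56.5 CPM, and in most mice both regions had similar values of each. In Ts66Yah mouse 5 the regions differed more, with Ndufa12 at 25.3 CPM in HIP and 35.8 CPM in EC. Gm15920 was at 15.8 and 20.7 CPM in these 2 libraries. Wt mouse 5 and Ts66Yah mice 5 and 6 had the next highest Gm15920, at 14.2 to 20.7 CPM. Of the 79 nuclear members, 46 share an exon with another gene or have a near-identical copy, and for these the counts are less certain; whether the counting used strand is not given in the sources used here.

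Genes around the chain were compared in the same fits. In the genotype comparisons, no gene outside the segment passed the threshold among the 18 electron carrier genes, the 33 other assembly factors, the 28 genes of mitochondrial DNA expression, the 12 regulators, the 14 genes of the TCA cycle and the 2 mitochondrial ribosomal RNAs tested. Tfam, which packages and transcribes mitochondrial DNA, gave -0.06 ± 0.048 in HIP and 0.01 ± 0.062 in EC, Cyc1, the cytochrome c1 of complex III, -0.08 ± 0.078 and 0.03 ± 0.095, and Cycs, cytochrome c, 0.09 ± 0.062 and 0.07 ± 0.090. mt-Atp6, which shares bases with mt-Co3 and was counted as low, gave 0.06 ± 0.31 and -0.22 ± 0.41. Between regions, complex V followed the members, with 6 of 18 genes higher and 0 lower in the EC in wt and 12 and 0 in Ts66Yah, and a median of 0.28 and 0.26. The electron carriers had 6 higher and 3 lower in wt and 8 and 3 in Ts66Yah, with Cycs higher by 0.25 ± 0.075 and 0.22 ± 0.076. The TCA cycle had 6 higher and 3 lower in both genotypes, and the other assembly factors 7 and 1 in wt and 11 and 2 in Ts66Yah. Over all genes, 23.4% were higher and 24.3% lower in wt, and 26.4% and 27.5% in Ts66Yah. The 7 of 33 other assembly factors higher in wt were near that share of all genes.

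The regulators went the other way between regions. Of 12 nuclear regulators, 0 were higher and 7 lower in the EC in wt, and 0 and 5 in Ts66Yah, with medians of -0.33 and -0.22. Over all genes, 23.4% were higher and 24.3% lower in wt, and 26.4% and 27.5% in Ts66Yah. Gabpa itself was lower in the EC, by -0.38 ± 0.091 and -0.46 ± 0.074. Of the 28 genes of mitochondrial DNA expression, 2 were higher and 4 lower in wt and 2 and 9 in Ts66Yah; Tfam gave -0.05 ± 0.063 and 0.01 ± 0.048.

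The regions also differed in their cell type markers, and these values stand beside every region difference given here. Neuronal markers were higher in the EC, 7 of 8 in both genotypes, and summed to 8376 to 9500.1 CPM in HIP and 10687 to 11932 CPM in EC. Oligodendrocyte markers were lower, 6 of 6 in both genotypes, and summed to 7232 to 10526 CPM in HIP and 1409.7 to 3501 CPM in EC. Astrocyte markers summed to 2128 to 2491 CPM in HIP and 2073 to 2684 CPM in EC, with 3 higher and 1 lower in wt and 3 and 2 in Ts66Yah. Markers of inhibitory neurons summed to 817 to 968 CPM and 836 to 1072 CPM, with 1 higher and 1 lower in each genotype. Microglial markers were higher (5 of 6 in wt and 6 of 6 in Ts66Yah, sums of 294 to 404 CPM and 373 to 489 CPM), as were endothelial markers in part (4 and 3 of 6, 173 to 208 CPM and 177 to 258 CPM) and erythroid genes (4 of 5 in both, 86.3 to 232 CPM and 249 to 673 CPM). Pericyte markers summed to 157 to 205 CPM and 166 to 239 CPM, with 1 of 6 higher in wt and 0 in Ts66Yah. Smooth muscle markers summed to 38.5 to 61.5 CPM and 28.7 to 49.3 CPM, with 1 of 5 lower in wt and 2 in Ts66Yah, and meningeal markers to 44.2 to 143 CPM and 48.2 to 138 CPM, with 4 of 6 higher and 1 lower in wt and 0 and 1 in Ts66Yah. The part of the cell type makeup in the members' region differences was not tested. Between genotypes, 0 of these markers passed the threshold in either region.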

How the data were processed

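RNA was measured in 22 bulk libraries from 11 mice, so replicates are separate animals. The authors deposited raw counts per gene, made with Hisat2 and HTSeq-count on GRCm38 from single-end reads. bcl2fastq 2.17.1.14, mm10 and DESeq2 are named in the submitters' processing notes. According to the labels poly(A) RNA was selected. The published methods add a ribosomal depletion kit, so levels of mitochondrial RNA may depend on a step that is not settled here. How multi-mapping reads and strand were treated is not given in the sources used here. The other deposited tables hold the authors' own fold changes and p-values and were not used.

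Counts were fitted with edgeR 4.0.16 (quasi-likelihood test, TMM, filterByExpr, Benjamini-Hochberg at 0.05) under R 4.3.3, over all genes of a comparison, and checked on simulated data. DESeq2 1.42.0, limma voom 3.58.1, other filters and scalings, blocks and left-out libraries were alternatives, and a GC correction was added after seeing the data. The members and lists were chosen with earlier results of these data known. Named members were all mitochondrial members, the tested isoform families, 6 core subunits and, in each comparison, the 12 members with the largest changes past the threshold at a mean of 1 CPM or more, or the 5 with the smallest p where fewer than 5 passed. The 3 highest and 3 lowest tested nuclear members per kb, the genes of other lists past the threshold between genotypes, and Gabpa, Tfam, Cyc1, Cycs, mt-Atp6, mt-Rnr1 and mt-Rnr2 were named too. Genes named outside this rule were chosen after their values were seen. HIP and EC libraries of one mouse deviated together (r = 0.21 to 0.45 in each pair), so the replicate numbers pair the regions. No 2 libraries agreed within sampling noise. Depth limits precision: intervals cover counting and replicate error as estimated by the fit.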

Additional observations from a re-analysis of the deposited data

Results flagged for a closer look

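Of 187 groups of values tested by Dixon's criterion (0.71 for 5 and 0.625 for 6 libraries), 22 held a library far from the others, where chance gives about 5%. Values are in CPM unless a percent is named. Ts66Yah EC replicate 5 stood apart for mt-Nd1 at 11008 (others 6664 to 8175), mt-Nd2 at 6189 (others 4028 to 4815), mt-Nd4 at 4268 (others 2968 to 3205), mt-Cytb at 10795 (others 7404 to 8197), Cox6a2 at 7.28 (others 2.83 to 3.61), Ndufb8 at 129 (others 101 to 112), Uqcrq at 120.4 (others 80.1 to 91) and the summed share of mitochondrial members at 4.92% (others 3.45% to 3.86%). wt HIP replicate 3 stood apart for mt-Nd2 at 4098 (others 3383 to 3482), mt-Cytb at 8564 (others 6483 to 6853) and mt-Co2 at 17.9 (others 4.87 to 7.02). wt EC replicate 2 stood apart for mt-Nd2 at 3327 (others 4309.9 to 4615). wt EC replicate 5 stood apart for Cox4i1 at 743 (others 505 to 555), Cox6b1 at 219 (others 199 to 204) and Ndufa4l2 at 3.7 (others 1.84 to 2.31). Ts66Yah HIP replicate 2 stood apart for Cox6b1 at 200.2 (others 159 to 167), Cox7b at 104 (others 92.8 to 95.7) and Uqcrc1 at 255 (others 200.3 to 220.4). wt HIP replicate 5 stood apart for Uqcrfs1 at 122 (others 92.3 to 99.8). Ts66Yah HIP replicate 4 stood apart for Ndufs5 at 23.5 (others 18.9 to 20.1). wt HIP replicate 2 stood apart for Ndufa2 at 34.4 (others 46.8 to 50.8) and Ndufb4 at 15.3 (others 21.5 to 23.7).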

How the results depend on the processing

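No called member changed sign under any alternative run. In the genotype comparisons the count of called members stayed at 0, except in the HIP, where DESeq2 called 1 nuclear member lower (Ndufb9) and leaving out 1 library gave 0 to 1 (Cox5b, without wt HIP replicate 2). The replicate numbers of wt and Ts66Yah share only a number (r from -0.0070 to 0.18 over the pairs), and the replicate block gave 0 calls there. Between regions, with the replicate block, all 37 wt and 45 Ts66Yah calls were kept, and 4 mitochondrial members were higher in Ts66Yah in place of 2. With the block and the GC correction, 6 mitochondrial members were higher in wt and 5 in Ts66Yah. Without a filter 1 was higher in wt. With a filter of 1 CPM in 5 libraries, 1 nuclear member was lower in wt and 0 mitochondrial members were lower in wt or in Ts66Yah, since fewer low genes were tested. Leaving out 1 animal gave 20 to 31 nuclear members higher in wt and 32 to 39 in Ts66Yah, 2 to 3 lower in each genotype, 1 to 4 mitochondrial members higher and 0 to 1 lower in wt, and 1 to 3 higher and 0 to 1 lower in Ts66Yah. Out of all counts but those of mitochondrial genes, the nuclear share in Ts66Yah HIP was 0.609%, beside 0.583% of all counts. The cause of these changes was otherwise not tested. Members under 1 CPM and those with near-identical copies are the least certain.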
